A study of Mus musculus with 2 samples.

Results

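The 53 genes described here encode adhesion molecules and secreted ligands that organize synapses: neurexins, neuroligins, LRRTMs, cerebellins, neurexophilins, contactins, contactin-associated proteins, teneurins, latrophilins, FLRTs, SLITRKs, IL1RAPLs and 3 IgLONs. A rule on the gene symbol alone picked them out of the 32285 genes counted. The tissue was hypothalamus of wild-type male C57BL/6J mice, 10 to 12 weeks old. NeuN-positive nuclei (NeuN is a nuclear protein of neurons) were sorted and sequenced as 1 pooled 10x Genomics library with a second library of hashtags, the barcoded antibodies that mark the nuclei of 1 preparation before pooling. Both libraries are labelled arcuate nucleus (ARC), whereas the files name the 2 hashtags ARC and PVH (the usual abbreviation of the paraventricular hypothalamus), and the groups here are called by those hashtag names. Nuclei are not assigned to mice, so there were no replicates and no test was made: each interval below covers counting error only and says nothing of the spread between animals.

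Synaptic organizers act in pairs across the cleft. Neurexins sit mostly on the presynaptic side, where neuroligins, LRRTMs and the secreted cerebellins and neurexophilins bind them, and latrophilins bind teneurins and FLRTs. SLITRKs and IL1RAPLs bind presynaptic receptor tyrosine phosphatases, contactins are held in the membrane by a lipid anchor and often pair with contactin-associated proteins, and IgLONs are small anchored immunoglobulin proteins that bind each other. Such genes are known for differing between neuron types in which family member they use, a pattern thought to help specify connections.

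After filtering, 6841 nuclei carried exactly 1 hashtag. They fell into 21 clusters, made without any of the 53 genes, and 20 of these were neuronal, with 3750 ARC-hashtag and 3062 PVH-hashtag nuclei at a median of 4828 and 5039 UMIs per nucleus (a UMI is the molecular tag by which repeated reads of the same RNA are counted once). The remaining cluster of 29 nuclei (cluster 21, median 4750 UMIs) had markers of oligodendrocytes and their precursors. Hashtag counts overlapped, since ARC-hashtag nuclei had medians of 95 ARC and 77 PVH counts and PVH-hashtag nuclei had 49 and 125. Sim1, a transcription factor of paraventricular neurons, stood at 10.6 CPM (UMI count of the gene, scaled to a group total of 1000000) in ARC-hashtag and 109 CPM in PVH-hashtag neurons. Clusters were named only where fixed markers allowed: AGRP-like (cluster 1), dopaminergic-like (5), POMC-like (9), VMH-like (11), SST-like (12), KNDy-like (13), GHRH/cholinergic-like (15) and SIM1-like (7, 8, 18 and 19). The SST-like name rested on Sst, Otp and Unc13c, whereas Calb1 and Npy2r of that list did not pass. GHRH/cholinergic-like rested on Ghrh, Chat and Gal, whereas Slc18a3, Slc5a7 and Gsx1 did not pass. Each SIM1-like cluster also passed only part of its list. The other 9 are called by number and leading genes. In cluster 14, 5 of 6 astrocyte markers passed the marker rule, and their summed level was 368 CPM against 7.50 to 56.2 CPM in the other neuron clusters, with none of the 6 at 0. It led for no member past 2-fold.

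The members made up 2.72% of the UMIs of ARC-hashtag neurons and 3.22% of those of PVH-hashtag neurons, against 1.77% in the oligodendrocyte-marker cluster. Across neuron clusters the share ran from 1.76% in the KNDy-like to 3.71% in the VMH-like cluster. These genes are long. The 49 members with at least 30 UMIs had a median length of 290.8 kb from first to last annotated base, against 27.8 kb over 13963 protein-coding genes at the same minimum, and 10 of the 49 exceeded 1000 kb compared with 0.415% of the coding genes. The longest, Cntnap2, spans 2.24 Mb, and the shortest, Cbln1, 4.21 kb. Across these 49 genes the UMI count followed length with a Spearman coefficient of 0.93, compared with 0.43 across the coding genes, which is a description over genes that share libraries and capture. Levels of different members are therefore set beside each other only per kilobase. On that scale Slitrk1 stood highest, at 7.68 CPM per kb, followed by Flrt3 at 5.96 and Nlgn2 at 4.35, while Cbln1, the shortest member, was at 0.719, Lsamp, the gene with the most UMIs, was at 2.51 and Cntnap3 at 0.134 CPM per kb.

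The first comparison asked whether these genes differ between the hashtags. Among the 49 members with at least 30 UMIs, 6 were past 2-fold higher in PVH-hashtag neurons (2.79% of all 17082 genes tested were) and 1 was past 2-fold lower (2.34% of all genes were). The 6 were Cntnap3, Nxph4, Cbln2, Cntnap5b, Cntn6 and Cntn4, and the 1 was Il1rapl2. The median member log2 ratio was 0.21, against -0.04 over all genes tested. Intervals lay above 0 for 28 members and below 0 for 8, against 2246 and 3657 of the 17082 genes, and most members have many UMIs, which makes their intervals narrow. The 4 members below the minimum were Cbln3 (3 UMIs), Nxph2 (18), Nxph3 (23) and Adgrl4 (26).

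**Figure D1:**
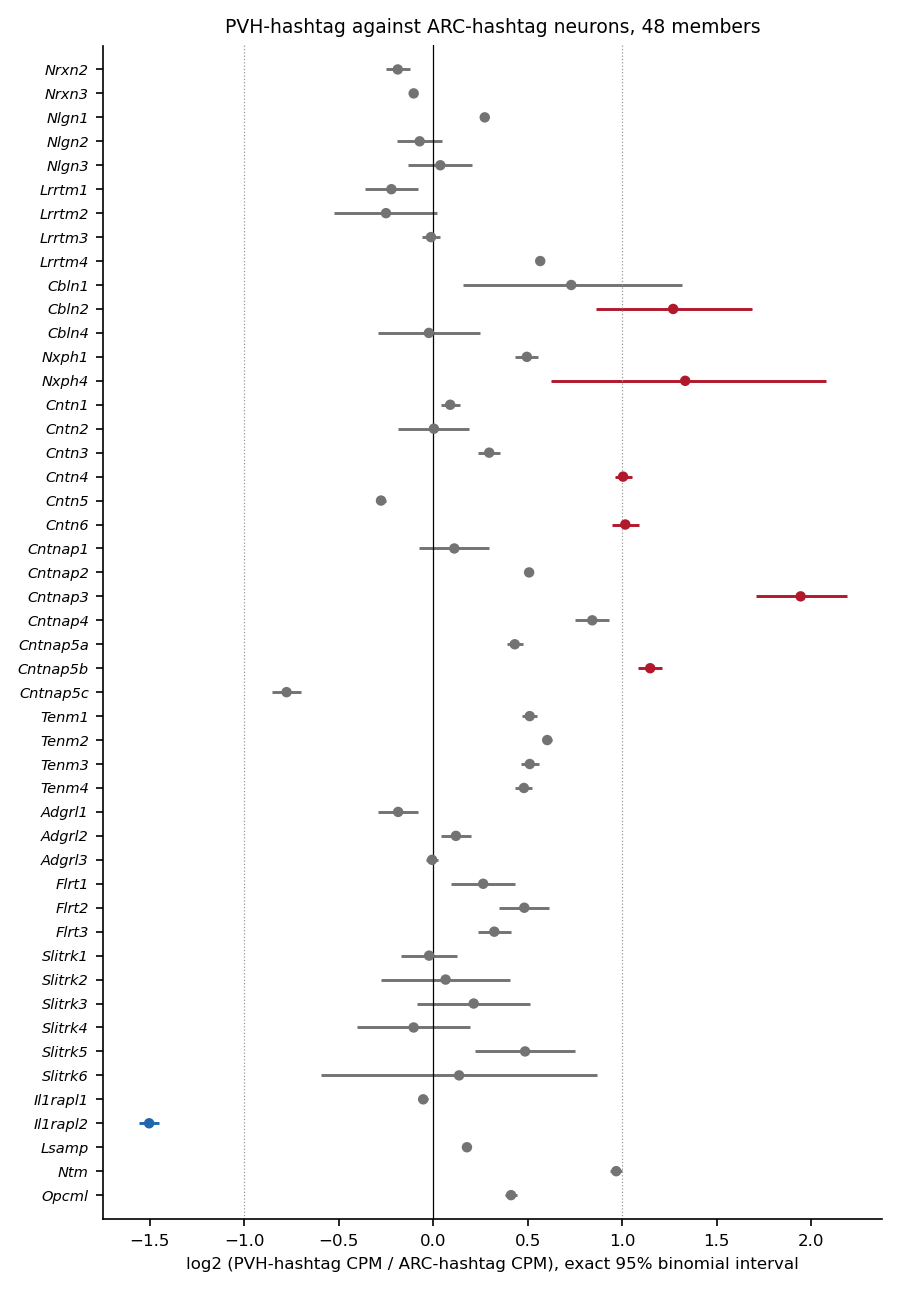
Each point is the log2 ratio of the summed level (CPM) in PVH-hashtag neurons over that in ARC-hashtag neurons for 1 of 48 members, in order of family, with its exact 95% binomial interval as a bar; dotted lines mark 2-fold. Red points are the 6 members past 2-fold higher and the blue point, at -1.5, is Il1rapl2.

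Cntnap3, a contactin-associated protein, was at 9.68 CPM (interval 8.35 to 11.2) in ARC-hashtag and 37.2 CPM (34.4 to 40.3) in PVH-hashtag neurons, a log2 ratio of 1.94 (1.71 to 2.19). Il1rapl2, a receptor-like partner of presynaptic phosphatases, went the other way, at 607 CPM in ARC-hashtag and 214 CPM in PVH-hashtag neurons (log2 ratio -1.5, -1.56 to -1.45). Its X-linked relative Il1rapl1 did not share this difference, at 1452 and 1399.6 CPM (log2 ratio -0.05). Both contactin neighbours Cntn4 and Cntn6, neural adhesion proteins, were about 2-fold higher: Cntn4 was at 327 and 655 CPM (log2 ratio 1.00, 0.96 to 1.05) and Cntn6 at 130.2 and 263 CPM (1.02, 0.95 to 1.09). These values lie at the threshold itself. Cntnap5b was at 158 CPM in ARC-hashtag and 349.5 CPM in PVH-hashtag neurons (1.15, 1.08 to 1.21), whereas Cntnap5c was lower in the PVH-hashtag neurons, at 118 against 202 CPM (-0.78). The secreted neurexin ligands Cbln2 (9.31 against 3.86 CPM, log2 ratio 1.27, 0.86 to 1.69) and Nxph4 (3.24 against 1.29 CPM, 1.33, 0.62 to 2.08) rested on 230 and 79 UMIs. Just short of 2-fold were Ntm, an IgLON, at 648 and 1268 CPM (0.97), and Cntnap4 at 83.6 and 149.9 CPM (0.84). All 4 teneurins were higher in PVH-hashtag neurons by log2 0.48 to 0.60, and Nrxn2, Nrxn3 and the neuroligins lay between -0.19 and 0.27.

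The hashtags hold different cell types, so the ratio was also read within transmitter classes. Clusters with more summed Slc17a6, the vesicular glutamate transporter, than Slc32a1, the vesicular GABA transporter, were called glutamatergic (12 clusters, 3208 nuclei) and the others GABAergic (8 clusters, 3604 nuclei). Glutamatergic ARC-hashtag nuclei lay mostly in clusters 6, 9, 13 and 11 and the PVH-hashtag nuclei in 4, 7, 8 and 17. GABAergic ARC-hashtag nuclei lay mostly in clusters 1, 5, 10, 12, 3, 15 and 16, and PVH-hashtag nuclei in 2, 3 and 5. Among glutamatergic neurons 6 of 48 members were past 2-fold higher in PVH-hashtag nuclei (2.84% of all genes) and 1 was lower (2.54% of all genes), the same 7 genes as over all neurons. Cntnap3 was at 9.93 CPM in ARC-hashtag and 49.5 CPM in PVH-hashtag glutamatergic neurons (log2 ratio 2.32, 1.96 to 2.69), and Il1rapl2 at 620.2 and 199 CPM (-1.64, -1.72 to -1.57). The others were Cbln2 (4.31 and 12.5 CPM, 1.53), Cntnap5b (169 and 472 CPM, 1.48), Nxph4 (1.83 and 4.44 CPM, 1.28), Cntn4 (357 and 857 CPM, 1.26) and Cntn6 (143 and 329.9 CPM, 1.21).

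Among GABAergic neurons 5 of 48 members were past 2-fold higher in PVH-hashtag nuclei (2.82% of all genes) and 1 lower (3.3% of all genes). Of the 6, those also past 2-fold in the glutamatergic neurons were Cntnap3 (9.52 and 20.2 CPM, log2 ratio 1.09) and Il1rapl2 (599 and 236 CPM, -1.34). Tenm2, a teneurin that binds latrophilins, was at 1029.5 CPM in ARC-hashtag and 2838 CPM in PVH-hashtag GABAergic neurons (1.46), while in glutamatergic neurons it was at 1888 and 1530.5 CPM (-0.30). Ntm was at 525 and 1313 CPM (1.32), Cntnap4 at 86.4 and 184 CPM (1.09) and Cntnap5a at 321 and 684 CPM (1.09). Over 15 alternatives Tenm2 was past 2-fold in 14, Il1rapl2 in 13, Ntm in 13 (log2 ratio -0.53 to 1.68), Cntnap4 in 12 and Cntnap5a in 10. Cntnap3 was so in 11 of 14.

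Within single clusters that held at least 50 nuclei of each hashtag, the hashtag ratios were not the same from cluster to cluster. In cluster 3 (Lef1, Lhx8, Onecut3) 2 of 45 members were past 2-fold, in cluster 4 (Kitl, Lhx9, Zic4) 7 of 45, in the dopaminergic-like cluster 4 of 42, in the VMH-like cluster 2 of 38 and in cluster 14, the one with astrocyte markers, 6 of 33. Over all genes these shares were 2.68%, 6.20%, 4.19%, 3.60% and 10.1%. Il1rapl2, lower in PVH-hashtag neurons as a whole, was at 68.5 CPM in ARC-hashtag and 153 CPM in PVH-hashtag dopaminergic-like nuclei (log2 ratio 1.16, 0.79 to 1.54), and at 182 and 87.5 CPM in VMH-like nuclei (-1.06, -1.63 to -0.53). Cntnap5b was likewise higher with the PVH hashtag in cluster 4 (214 and 534 CPM, 1.32) and lower in dopaminergic-like nuclei (339 and 163 CPM, -1.06). Nrxn3, a neurexin, differed little over all neurons, at 2705 and 2518 CPM (log2 ratio -0.10), but within cluster 4 it was at 3178 CPM in 119 ARC-hashtag nuclei and 972 CPM in 413 PVH-hashtag nuclei (-1.71, -1.80 to -1.62). Cntn4 in cluster 3 was at 497 and 498 CPM (0.00).

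**Figure D2:**
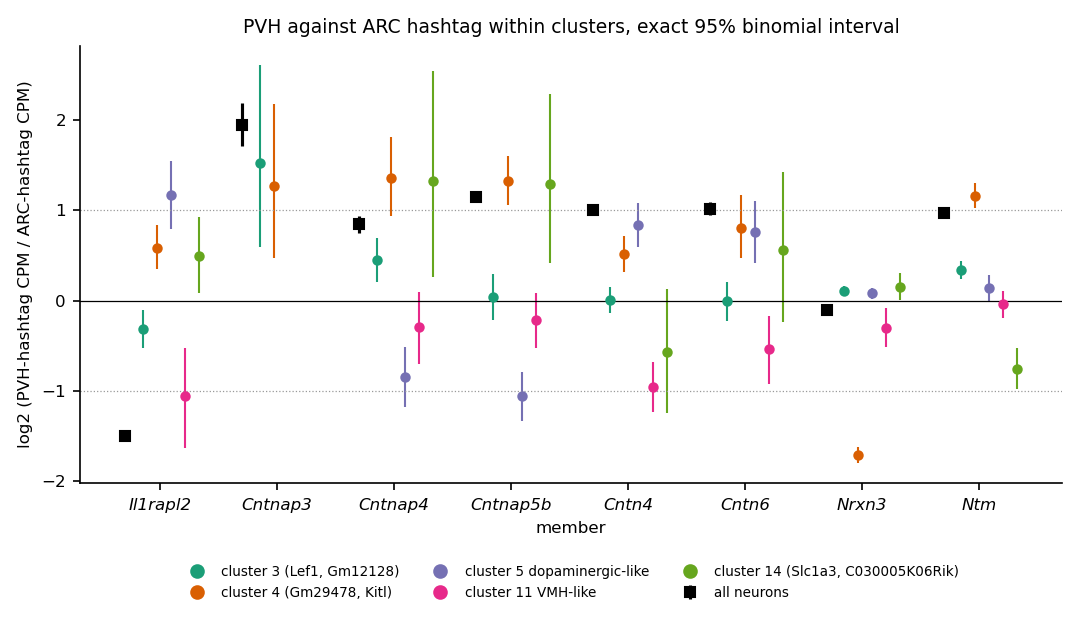
The vertical axis is the log2 ratio of PVH-hashtag over ARC-hashtag CPM with exact 95% binomial intervals, for 8 members in all neurons (black squares) and within the 5 clusters that hold at least 50 nuclei of each hashtag (coloured points; a member under 30 UMIs in a cluster has no point). Il1rapl2 lies at -1.5 over all neurons but above 0 in 3 of the 5 clusters, and Nrxn3 lies far from 0 in cluster 4 only.

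The next comparison set glutamatergic against GABAergic clusters, once within each hashtag. In ARC-hashtag neurons 1 of 48 members was past 2-fold higher in glutamatergic clusters (2.46% of all genes) and 2 were lower (1.92% of all genes). Cntn3, a contactin, was at 398 CPM in glutamatergic and 132 CPM in GABAergic ARC-hashtag neurons (log2 ratio 1.59), Cntn5 at 656 and 1611 CPM (-1.30, -1.34 to -1.25), and Cbln4, a secreted cerebellin, at 7.97 and 16.1 CPM (-1.01, -1.45 to -0.59). Cluster 6, which had the most Cntn3 and held 410 ARC-hashtag nuclei, was classed glutamatergic on 40.9 CPM of Slc17a6 and 37.9 CPM of Slc32a1. When nuclei were classed one by one by which transporter they had a UMI of, none of these 3 genes was past 2-fold (Cntn3 was at 0.55) and the count fell to 1. Without the share of all genes under this classing, the fall is not read as particular to the members. Over 15 alternatives Cntn3 was past 2-fold in 12, Cntn5 in 11 and Cbln4 in 7.

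In PVH-hashtag neurons 5 of 49 members were past 2-fold higher in glutamatergic clusters (2.94% of all genes) and 2 were lower (1.69% of all genes). Nrxn3 was at 1219 CPM in glutamatergic and 4323 CPM in GABAergic PVH-hashtag neurons, a log2 ratio of -1.83 (-1.86 to -1.80). The corresponding ARC-hashtag values were 1779.6 and 3306 CPM (-0.89). Nxph1, a neurexophilin that binds neurexins, was at 196 and 423 CPM (-1.11, -1.19 to -1.03). The 5 higher members were Nxph4 (4.44 and 1.58 CPM, 1.49), Cntnap5b (472 and 179.9 CPM, 1.39), Cbln2 (12.5 and 4.88 CPM, 1.36), Cntnap3 (49.5 and 20.2 CPM, 1.29) and Cntn4 (857 and 376 CPM, 1.19). Tenm2 had ratios of opposite sign in the 2 hashtags, at 1888 and 1029.5 CPM in ARC-hashtag neurons (0.87) and 1530.5 and 2838 CPM in PVH-hashtag neurons (-0.89). With nuclei classed one by one, the PVH-hashtag count fell from 7 to 1. The share of all genes under this classing is not given here, so the fall is not read as particular to the members.

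**Figure D3:**
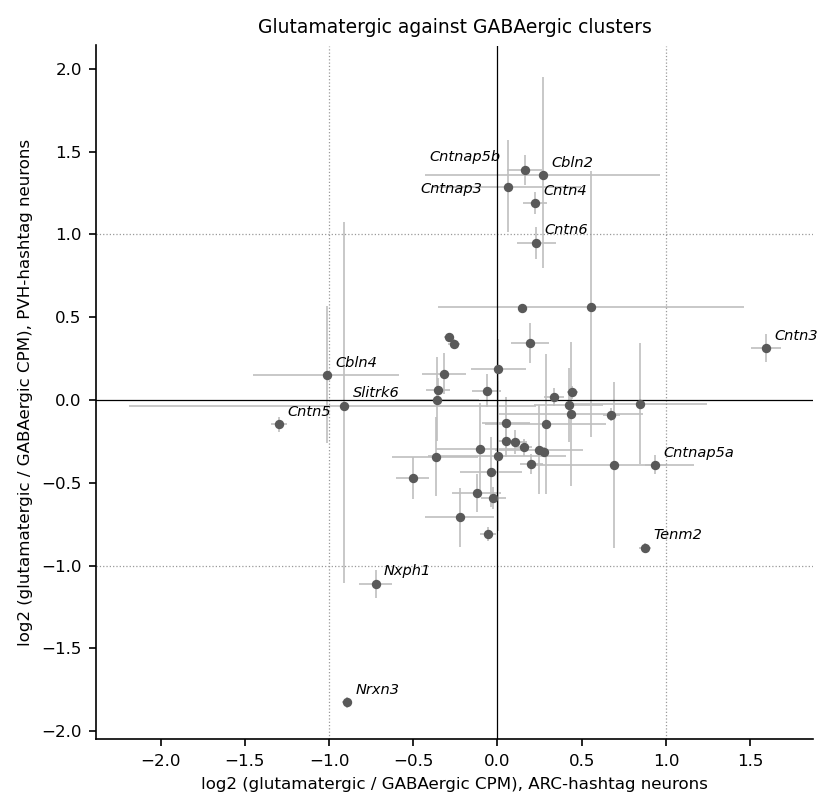
Each point is 1 of 47 members, with the log2 ratio of glutamatergic over GABAergic CPM in ARC-hashtag neurons on the horizontal axis and in PVH-hashtag neurons on the vertical axis, both with exact 95% binomial intervals; dotted lines mark 2-fold. Nrxn3 lies low on both axes (-0.89 and -1.83), and no point lies beyond 2-fold on both.

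The members were then read cluster by cluster. For each gene the neuron cluster with its highest level was set against the sum of all other neurons, so that the direction is fixed by the choice. By this measure 26 of 49 members were past 2-fold, against 22.3% of all genes, and the median log2 ratio was 1.01 for members and 0.78 over all genes. A gene also needed 10 UMIs in its leading cluster, which genes with few UMIs reach less often. Most members have many UMIs, so these shares do not compare genes of like depth. The 26 were led by 12 different clusters. Among them Cntnap5a, Slitrk1 and Flrt3 lay at the threshold itself (log2 ratio 1.01 each). They were past it in 10, 12 and 12 of 16 alternatives. With ARC-hashtag nuclei only the count was 28, and with PVH-hashtag nuclei only it was 17. The shares of all genes with 1 hashtag only are not given here, so these 2 counts are not set against a background.

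**Figure D4:**
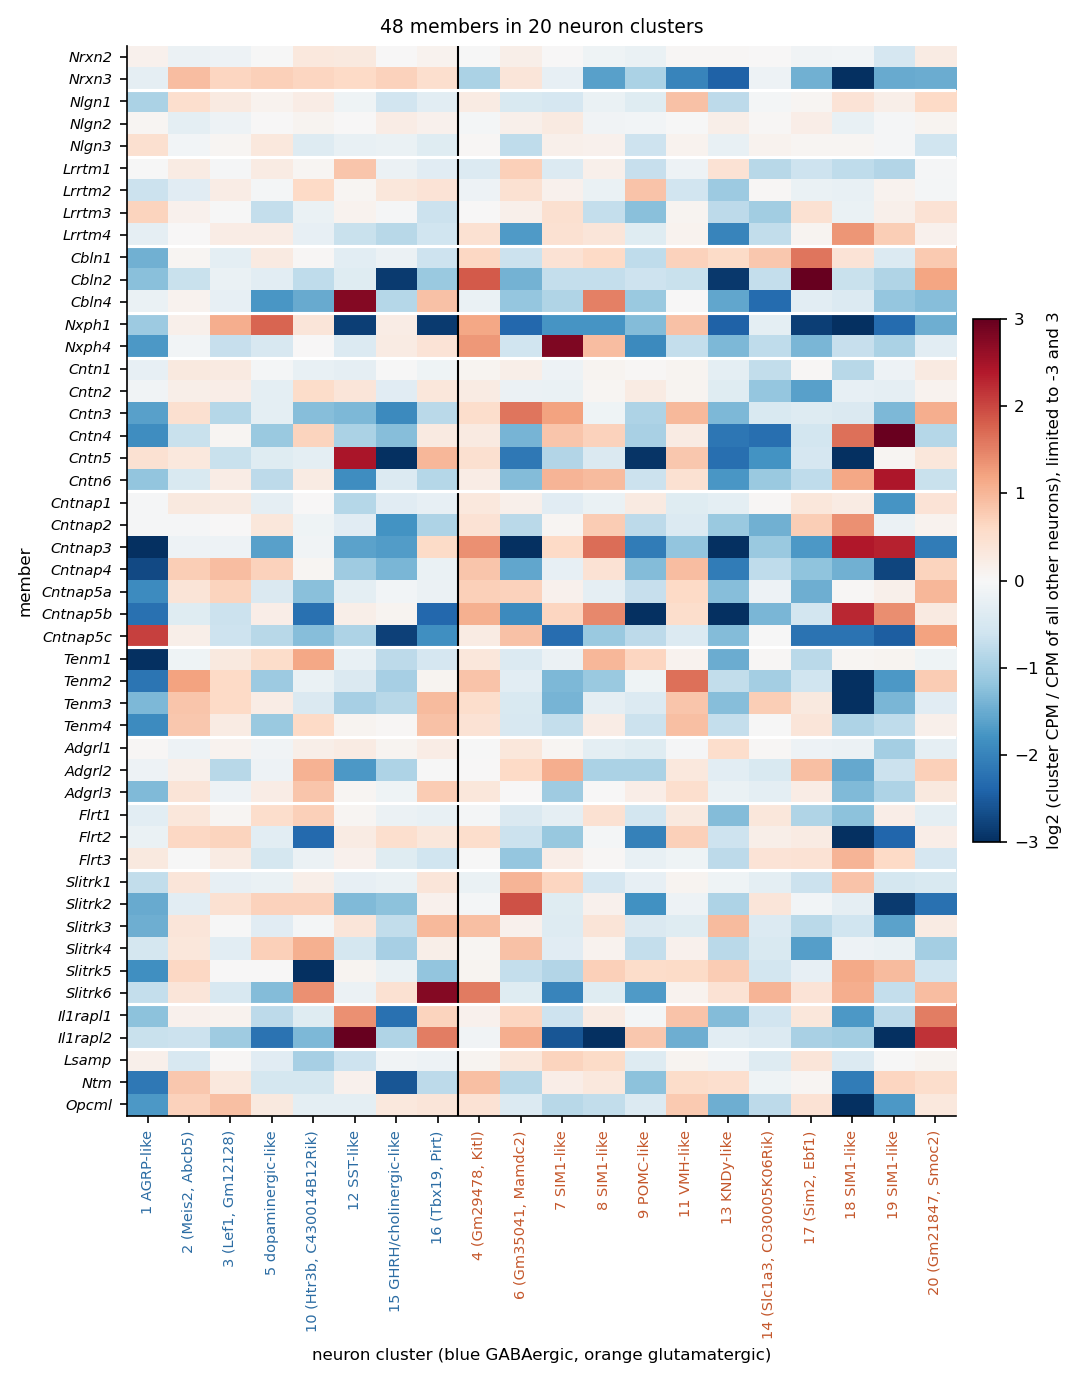
Rows are 48 of the 49 members with at least 30 UMIs, in order of family, and columns are the 20 neuron clusters, GABAergic left of the black line and glutamatergic right of it; colour is the log2 ratio of the cluster's CPM over that of all other neurons, limited to -3 and 3. Nrxn2, Nlgn2 and Lsamp are pale in nearly every column. Cntn3, Cntn4, Cntn5, Cntn6, Cntnap3, Cntnap5b, Cntnap5c and Il1rapl2 change colour from cluster to cluster, whereas Cntn1 stays pale.

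Of the neurexins, Nrxn2 ran only from 159 CPM (cluster 19) to 277 CPM (cluster 10). Nrxn3 ran from 236 CPM in the SIM1-like cluster 18 to 4542 CPM in cluster 2 (Meis2, Pax6, Sp8). No cluster was past 2-fold higher than the other neurons, whereas cluster 18 (log2 ratio -3.50), the KNDy-like (-2.42) and the VMH-like cluster (-1.98) were among those past 2-fold lower. All 8 GABAergic clusters had at least 2209.8 CPM of Nrxn3, the AGRP-like cluster the least of them, and 9 of the 12 glutamatergic clusters had less than that. Read in nuclei thinned to 1000 UMIs, which left out 1 nucleus, Nrxn3 was seen in 97.6% of cluster 2 and 15.8% of cluster 18, against 31.0% of the oligodendrocyte-marker nuclei (before thinning 99.2%, 47.5% and 51.7%, at medians of 4961, 5675 and 4750 UMIs). The KNDy-like (502 CPM) and VMH-like (686.5 CPM) clusters lay between cluster 18 and the 810.2 CPM of the oligodendrocyte-marker nuclei. Those nuclei exceeded the lowest neuron cluster for 34 of the 49 members, among them Opcml (2962 CPM, above every neuron cluster), Il1rapl1 (1253), Cntnap2 (1032), Tenm2 (551), Ntm (449), Cntn5 (266) and Cntn3 (247), whereas Cntnap5a was at 139 CPM there. The lowest cluster was picked gene by gene, so this count is high by construction. Its share over all genes is not given here, so the count is not read as a trait of the members. How much of the low levels given below is free RNA was not tested.

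Among the postsynaptic partners of neurexins, Nlgn2, the neuroligin of inhibitory synapses, ran from 53.4 to 75.5 CPM, a 1.41-fold range, and was at 69.6 CPM in the oligodendrocyte-marker cluster. Nlgn1, which sits at excitatory synapses, ran from 1016 CPM in AGRP-like to 3317 CPM in VMH-like nuclei, and Nlgn3 from 19.2 to 42.3 CPM. Among the LRRTMs, which bind neurexins from excitatory postsynapses, Lrrtm3 ran from 156 CPM (POMC-like) to 539.6 CPM (AGRP-like). Lrrtm4 was the only LRRTM past 2-fold in its leading cluster: it was at 4525 CPM in cluster 18 and 3066 CPM in cluster 19, and at its lowest in KNDy-like nuclei, at 484 CPM. The top level over the next was larger than counting error (log2 0.56, 0.49 to 0.64). Lrrtm1 led in SST-like nuclei (84.2 CPM) and Lrrtm2 in POMC-like nuclei (22.3 CPM), in both cases with an interval of the difference from the next cluster that includes 0.

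Of the secreted neurexin ligands, Cbln4 was at 72.5 CPM in SST-like nuclei, 33.1 CPM in the SIM1-like cluster 8 and 2.61 CPM in cluster 14, and the SST-like level exceeded the next by log2 1.13 (0.66 to 1.61). Cbln2 was at 43.2 CPM in cluster 17 (Sim2, Ebf1, Bdnf) and 18.8 CPM in cluster 4, with no UMI in cluster 18, and Cbln1 reached 8.65 CPM in cluster 17 on few UMIs. Nxph1 ran from 707 CPM in dopaminergic-like nuclei, through 501 CPM in cluster 4 and 473 CPM in cluster 3, to 13.7 CPM in cluster 18. Nxph4 was at 11.5 CPM in the SIM1-like cluster 7 and 4.80 CPM in cluster 4. No UMI of Cbln1, Cbln2, Cbln4 or Nxph4 was seen in the oligodendrocyte-marker nuclei. With 0 UMIs the interval there reached 23.4 CPM, so the lack of UMIs does not set these nuclei apart from most neuron clusters. Nxph1 was at 101 CPM there, above its level in 10 of the 20 neuron clusters.

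Contactins ranged widely. Cntn5 was at 5416 CPM (in SST-like nuclei) and 66 CPM (in cluster 18), with cluster 16 (Tbx19, Crhr2) second at 2198 CPM and POMC-like nuclei at 155 CPM. After thinning it was seen in 92.5% of SST-like, 5.83% of cluster 18 and 6.90% of oligodendrocyte-marker nuclei (before thinning 96.3%, 20% and 20.7%). Cntn4 and Cntn6 both led in the SIM1-like cluster 19, in which Oxt was among the markers that passed: Cntn4 was at 3213 CPM there and 1434 CPM in cluster 18, and Cntn6 at 934 and 415 CPM. In cluster 19, 3 of 6 tanycyte markers also passed (Col23a1, Vim and Lhx2), with the summed list at 144 CPM against 68.0 to 350.2 CPM in the other neuron clusters and Rax at 0; their part in the result was not tested. Cntn3 led in cluster 6 (Ror2, Tbx3os1), at 711 CPM, with cluster 7 at 564 CPM and GHRH/cholinergic-like nuclei at 71.6 CPM. Cntn1 (206 to 442 CPM) and Cntn2 (8.65 to 37.6 CPM) were not past 2-fold higher in any cluster, though Cntn2 was past 2-fold lower in clusters 17 and 14 (log2 ratios -1.62 and -1.17, on 10 and 9 UMIs). Both were higher in oligodendrocyte-marker nuclei, at 918 and 69.6 CPM.

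**Figure D5:**
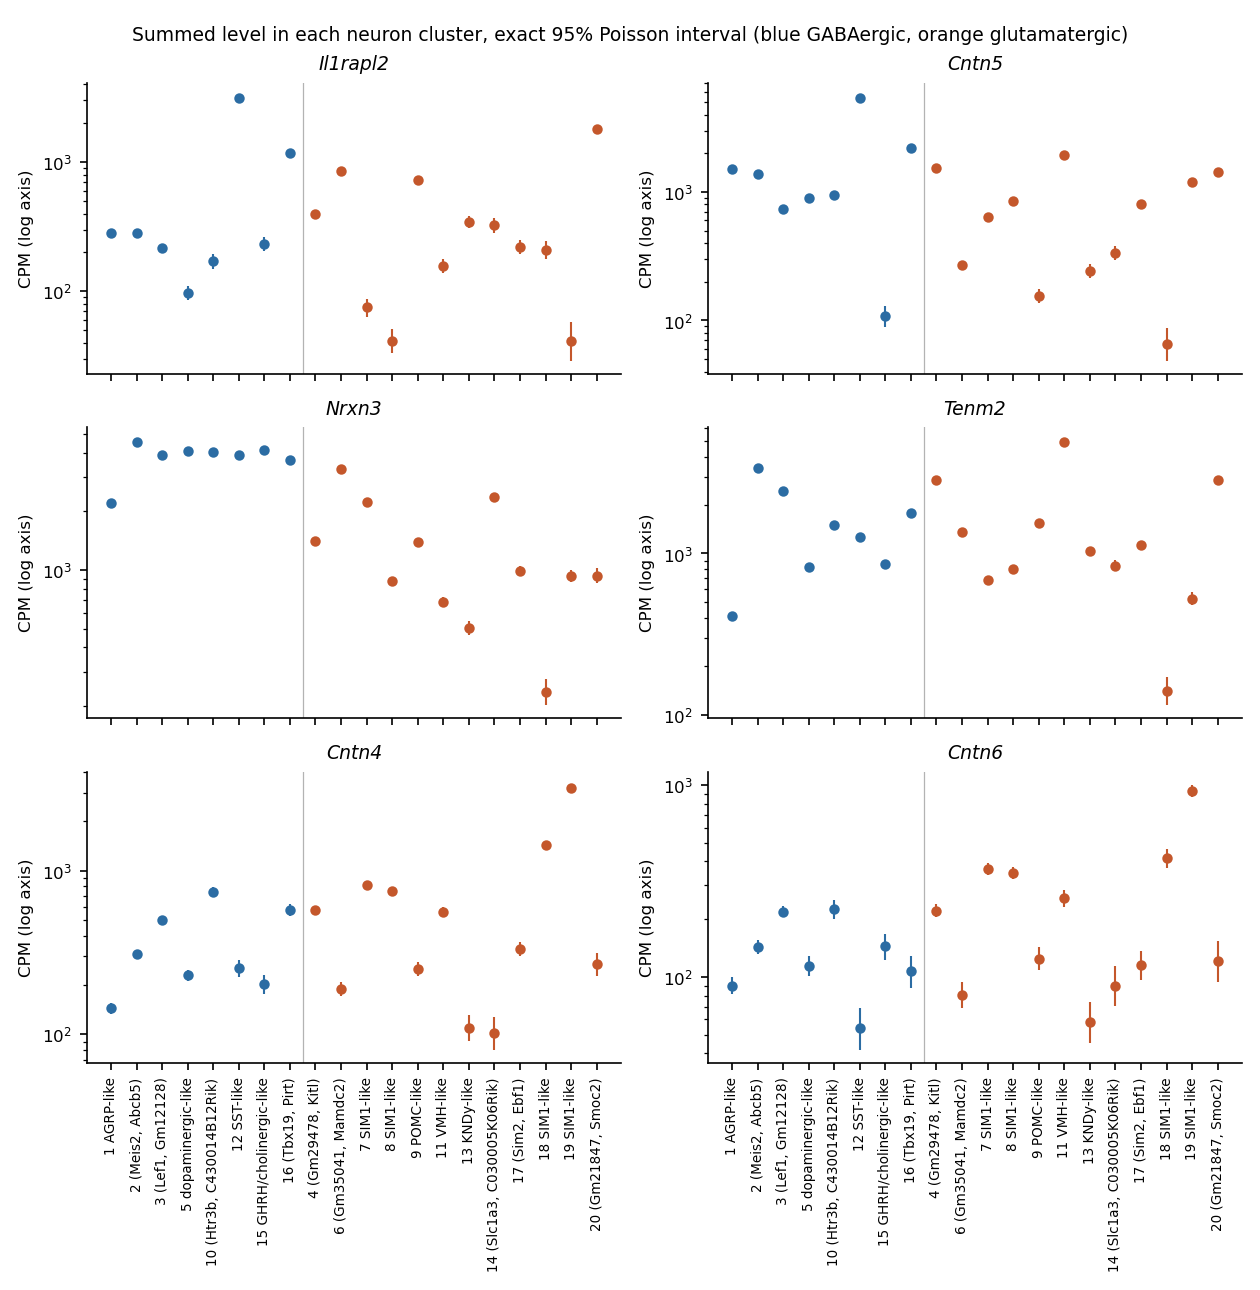
Points are the summed level (CPM, log axis) of 6 members in each of the 20 neuron clusters with exact 95% Poisson intervals, GABAergic clusters in blue left of the line and glutamatergic clusters in orange. Il1rapl2 and Cntn5 both peak in the SST-like cluster (3133 and 5416 CPM), Cntn4 and Cntn6 in the SIM1-like cluster 19, and Nrxn3 is high across the GABAergic clusters and lowest in cluster 18.

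Il1rapl2 followed Cntn5 into the SST-like cluster. It was at 3133 CPM there, 1815 CPM in cluster 20 (Smoc2, Ntng2), 1169 CPM in cluster 16 and 854 CPM in cluster 6, and was lowest at 41.4 CPM in the SIM1-like clusters 8 and 19, beside 44.3 CPM in the oligodendrocyte-marker nuclei. Thus 3 members past 2-fold there, with different roles, Cbln4, Cntn5 and Il1rapl2, had their highest level in the same 241 nuclei, of which 97.1% carried the ARC hashtag. Il1rapl1 led in cluster 20 (4012 CPM) and was second in SST-like nuclei (3532 CPM). It was lowest in GHRH/cholinergic-like nuclei, at 309 CPM.

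Promoters are shown for 2 of the groups of members past 2-fold in a common leading cluster, chosen after their values were seen: the 3 of the SST-like cluster and the contactin pair of cluster 19. Each is the stretch from 250 bases before to 50 bases after the start in RefSeq on GRCm38.p6, read 5′ to 3′ on the strand of the gene. Of the 53 members 39 matched this table. Il1rapl2 lies at chrX:137570504-137570803 (plus strand), Cbln4 at chr2:172043417-172043716 (minus strand), Cntn5 at chr9:10904726-10905025 (minus strand), Cntn4 at chr6:106118515-106118814 (plus strand) and Cntn6 at chr6:104492794-104493093 (plus strand). The Cntn4 start is 441 kb inside the gene as GENCODE M21 draws it. No one of the 5 motifs searched contains another. Capitals mark matches, on either strand, to CCAAT (in 37.4% of the 32851 promoters of this length), TATAAA (13.6%), TAATTA (5.29%), TGACGTCA (1.79%) and CAGCTG (16.3%).
Il1rapl2: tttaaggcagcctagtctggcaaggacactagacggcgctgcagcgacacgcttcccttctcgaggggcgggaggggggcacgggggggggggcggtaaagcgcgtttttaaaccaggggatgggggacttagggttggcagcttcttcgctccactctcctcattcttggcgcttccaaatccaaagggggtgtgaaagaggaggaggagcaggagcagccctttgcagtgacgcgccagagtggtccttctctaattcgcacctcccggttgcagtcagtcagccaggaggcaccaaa
Cbln4: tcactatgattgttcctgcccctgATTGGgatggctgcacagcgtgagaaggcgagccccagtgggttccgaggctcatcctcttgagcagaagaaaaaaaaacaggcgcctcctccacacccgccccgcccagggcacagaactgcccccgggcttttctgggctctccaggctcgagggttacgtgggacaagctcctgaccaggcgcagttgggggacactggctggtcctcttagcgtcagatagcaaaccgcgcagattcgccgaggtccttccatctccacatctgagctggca
Cntn5: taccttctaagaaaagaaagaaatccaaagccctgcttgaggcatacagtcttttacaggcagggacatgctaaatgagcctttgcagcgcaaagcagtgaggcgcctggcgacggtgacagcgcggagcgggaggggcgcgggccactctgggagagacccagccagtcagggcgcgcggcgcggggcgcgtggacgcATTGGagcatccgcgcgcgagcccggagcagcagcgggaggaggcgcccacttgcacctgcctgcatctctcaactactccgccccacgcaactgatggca
Cntn4: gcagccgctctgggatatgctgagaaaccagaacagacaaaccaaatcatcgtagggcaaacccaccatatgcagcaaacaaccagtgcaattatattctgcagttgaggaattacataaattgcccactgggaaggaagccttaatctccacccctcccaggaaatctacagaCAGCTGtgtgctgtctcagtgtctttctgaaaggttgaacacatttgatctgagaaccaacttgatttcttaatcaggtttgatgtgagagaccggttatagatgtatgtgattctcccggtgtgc
Cntn6: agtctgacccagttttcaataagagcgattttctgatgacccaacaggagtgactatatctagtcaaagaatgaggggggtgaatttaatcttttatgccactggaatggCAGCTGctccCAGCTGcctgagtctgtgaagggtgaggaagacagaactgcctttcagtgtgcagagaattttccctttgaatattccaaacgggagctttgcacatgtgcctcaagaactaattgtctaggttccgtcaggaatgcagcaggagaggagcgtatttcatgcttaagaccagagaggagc

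Cbln4 and Cntn5 each held 1 CCAAT match, Cntn4 held 1 CAGCTG match and Cntn6 held 2, and Il1rapl2 held none of these letters in this window. The promoters of the first 3 were 60.3%, 60.3% and 63.7% G and C, and those of Cntn4 and Cntn6 45.0% and 46.3%, with a median of 52.7% over all promoters. A match describes the sequence only.

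Cntn6 and Cntn4 are also neighbours, on chromosome 6 on the plus strand with a gap of 0.814 Mb and no protein-coding gene between them, and with Cntn3 a further 1.92 Mb away. Their levels over the 20 neuron clusters had a Spearman coefficient of 0.83, a description over clusters that share 1 library. Other neighbours varied: the coefficient was 0.66 for Slitrk4 and Slitrk2 on chromosome X, 0.18 for Cntn3 and Cntn6, 0.33 for Opcml and Ntm on chromosome 9, whose gap is 0.069 Mb, and -0.24 for Slitrk6 and Slitrk5 on chromosome 14. Among all pairs of members with at least 100 UMIs the highest coefficients were those of Opcml with Flrt2 (0.85), Cntn6 with Cntn4 (0.83) and Opcml with Tenm2 (0.83), and the lowest that of Il1rapl2 with Cntn6 (-0.72).

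Of the contactin-associated genes, Cntnap2, known for clustering potassium channels along axons, was at 6274 CPM in cluster 18, 4122 CPM in cluster 8 and 747 CPM in GHRH/cholinergic-like nuclei. Cntnap5b led in cluster 18 too (1105 CPM, against 623 CPM in cluster 19 and 22.9 CPM in POMC-like nuclei), and Cntnap3 was at 109 and 101 CPM in clusters 18 and 19, which do not differ beyond counting error, with no UMI in cluster 20. Cntnap5c had another place: it led in AGRP-like nuclei at 496 CPM, followed by cluster 20 at 372 CPM, and was at 24.2 CPM in GHRH/cholinergic-like nuclei. Cntnap5a led in cluster 20 (1002 CPM) and was lowest in AGRP-like nuclei (149 CPM). Cntnap4 (17.3 to 210.2 CPM) and Cntnap1 (8.06 to 35.2 CPM) were not past 2-fold higher in any cluster. In cluster 19, where both were lowest, they were past 2-fold lower than in the other neurons (log2 ratios -2.76 and -1.76, on 15 and 7 UMIs). Cntnap4 was so in 8 other clusters too, from -2.71 in AGRP-like to -1.06 in SST-like nuclei.

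AGRP-like nuclei had the lowest Tenm1 (77.9 CPM) and Tenm4 (129 CPM) of the 20 clusters and low Tenm2 (411 CPM), whereas VMH-like nuclei had the highest Tenm2 (4907 CPM) and Tenm4 (791 CPM, within counting error of cluster 16) with Tenm1 at 624 CPM, below 6 other clusters. Tenm1 led in cluster 10 (Htr3b, Vgll3) at 1256 CPM and Tenm3 in cluster 16 at 712 CPM, the latter within counting error of the VMH-like level of 654 CPM. Of the latrophilins, Adgrl1 (41.4 to 118 CPM) and Adgrl3 (328 to 1408 CPM) were not past 2-fold higher in any cluster, and Adgrl2 was so in clusters 7 and 10, at 275.4 and 273 CPM. Adgrl3 was past 2-fold lower in AGRP-like nuclei (log2 ratio -1.33) and clusters 18 (-1.31) and 7 (-1.06), and Adgrl1 in cluster 19 (-1.02). Of the FLRTs, which bind latrophilins and UNC5 receptors, Flrt3 was at 242 CPM in cluster 18 and 56.7 CPM in cluster 6. Flrt2 was at 83.8 CPM in VMH-like nuclei and 5.50 CPM (4 UMIs) in cluster 18.

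Of the SLITRKs, postsynaptic partners of receptor phosphatases, Slitrk1 led in cluster 6 (78.4 CPM) and Slitrk2 there as well (26.6 CPM, against 13.1 CPM in cluster 10 and 1.15 CPM, 1 UMI, in cluster 19). Slitrk4 led in cluster 10 (21.5 CPM), where Slitrk5 was at its lowest (1.54 CPM, 2 UMIs), and Slitrk5 led in cluster 18 (28.9 CPM). The leads of Slitrk1, Slitrk4 and Slitrk5 over the next cluster were within counting error. Slitrk6 was at 10.9 CPM in cluster 16, on few UMIs and close to the 12.7 CPM (2 UMIs) of the oligodendrocyte-marker nuclei. Slitrk3, at 3.45 to 19.8 CPM, was not past 2-fold higher in any cluster. It was past 2-fold lower in cluster 19 (log2 ratio -1.61, on 3 UMIs) and in AGRP-like nuclei (-1.47, on 17 UMIs). No IgLON, a family of broad adhesion proteins of neurons, was past 2-fold higher in any cluster, but Opcml was past 2-fold lower than in the other neurons in clusters 18 (log2 ratio -3.54), 19 (-1.73), 1 (-1.73) and 13 (-1.46), and Ntm in clusters 15 (-2.56), 1 (-2.15), 18 (-2.10) and 9 (-1.23). Lsamp ran from 2818 CPM (cluster 10) to 8461 CPM (cluster 7), Ntm from 162 CPM (GHRH/cholinergic-like) to 1626 CPM (cluster 4), and Opcml from 78.3 CPM (cluster 18) to 1538 CPM (cluster 3).

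By neuron type, AGRP-like nuclei had high Cntnap5c and Lrrtm3, low Tenm1, Tenm2 and Tenm4 and little Ntm (232 CPM), and Cntnap3 was nearly unseen (1.43 CPM). POMC-like nuclei had low Cntn5 (155 CPM) and Cntnap5b (22.9 CPM) with 721 CPM of Il1rapl2. KNDy-like nuclei had the smallest share of members and the lowest Lrrtm4. The oligodendrocyte-marker nuclei were higher than these low values beyond counting error for Tenm2, Ntm, Cntn5 and Lrrtm4, the last at 810.2 CPM (676 to 963). Within counting error of the low values were Tenm1 at 94.95 CPM (53.1 to 157), Tenm4 at 152 CPM (97.3 to 226) and Cntnap5b at 31.7 CPM (10.3 to 73.9). Cntnap3 had no UMI in the oligodendrocyte-marker nuclei, where the interval reached 23.4 CPM. The 4 SIM1-like clusters were not alike: Nrxn3 was at 2242, 875, 236 and 936 CPM, Cntn5 at 635, 849, 66 and 1185 CPM and Cntn4 at 822, 748, 1434 and 3213 CPM in clusters 7, 8, 18 and 19. Cntnap3 and Cntnap5b were higher in 18 and 19 than in 7 and 8, although Cntnap5b in cluster 19 (623 CPM) was close to cluster 8 (611 CPM).

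A fixed list of 44 other synaptic and adhesion proteins (receptors, ligands and scaffolds), not all of which bind a member, was counted in the same way. Of 42 with at least 30 UMIs, 1 was past 2-fold between the hashtags: Unc5b, an FLRT-binding netrin receptor, at 35.0 CPM in ARC-hashtag and 14.1 CPM in PVH-hashtag neurons (log2 ratio -1.31, -1.53 to -1.09), where 5.12% of all genes were past 2-fold in either direction. Between transmitter classes 2 were past 2-fold in ARC-hashtag neurons, among them Ntng2 (netrin-G2, an anchored axonal protein), at 14.8 CPM in glutamatergic and 1.87 CPM in GABAergic neurons (2.98, 2.31 to 3.71), and 3 in PVH-hashtag neurons, among them Mdga1, a protein that blocks neuroligin from neurexin, at 58.6 and 15.1 CPM (1.96, 1.66 to 2.27). Over all genes 4.39% and 4.63% were past 2-fold in these comparisons. In their leading clusters 14 of the 42 were past 2-fold, and the median log2 ratio of the 42 was 0.87, beside 22.3% and 0.78 over all genes, again not at like depth. The 14 included Il1rap, a relative of the IL1RAPLs, which led in the SST-like cluster at 106 CPM against 41.2 CPM in the other neurons. They also included Ntng1, at 897 CPM in cluster 8 against 231 CPM in the other neurons.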

How the data were processed

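For 11409 barcodes the deposited values are counts (UMIs of each gene and of each hashtag), which the authors left unnormalized. The processing notes and methods name Cell Ranger 5.0, the header of the matrix names 4.0.0, and the notes give mm10 as the build. The filters of the methods were applied: above 800 and below 5000 genes, a mitochondrial share up to 1%, up to 12000 counts, and genes seen in 3 nuclei or more. They left 10170 nuclei. HTODemux (positive quantile 0.8) in Seurat 5.3.0 (R 4.3.3) gave 3767 ARC and 3074 PVH singlets, 944 doublets and 2385 unassigned nuclei. Doublets within a hashtag are not seen by this step, and no other caller was run.

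Counts were log-normalized (scale factor 10000) and clustered by the Leiden method at resolution 0.55 (leidenbase 0.1.32, 30 components, 20 neighbours). Of 2000 variable genes, 24 were members and were removed. Non-neuronal clusters were those with a median neuronal marker fold below 0.5 in which 3 or more glial or vascular markers passed. A marker passed at 1.5-fold over the other clusters with 3 UMIs or more, and names required 3 passing markers, the first listed included. UMIs were summed per group (Python 3.11.15, scipy 1.17.1) and given as CPM with exact 95% Poisson intervals, and ratios have exact 95% binomial intervals. Past 2-fold means an absolute log2 ratio of at least 1 with at least 30 UMIs over both groups (leading clusters also needed 10 UMIs there and 50 nuclei), among members and all genes alike. The ratio step was tested on simulated data. A ratio against a group with 0 UMIs was computed against a floor of 3 UMIs in that group.

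Gene positions and lengths come from GENCODE M21, in which 32235 of 32285 identifiers and all 53 members were found. Of the members, 20 overlap another gene on the same strand, none of it protein coding, and reads shared with such genes could be assigned differently. Every member could be named, by family. Those past 2-fold between hashtags or transmitter classes are given with both levels and the ratio. Those past it within single clusters are given by their number with examples. The list of other synaptic and adhesion proteins was counted in the same way. The members were set by a rule on symbols, and that rule, the lists and the comparisons were chosen with earlier results of these data known. The values of 1 member are not reported here. Alternatives are given in the closing section.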

Additional observations from a re-analysis of the deposited data

How the results depend on the processing

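With the fold threshold at 1.5 in place of 2, the members past it numbered 12 between the hashtags, 11 and 12 between transmitter classes in ARC-hashtag and PVH-hashtag neurons, 41 in leading clusters, 14 between hashtags in glutamatergic and 17 in GABAergic neurons. The shares of all genes were 12.9%, 11.9%, 12.0%, 44.4%, 13.5% and 14.8% in that order. The ARC-hashtag transmitter count of 3 became 6 with at most 5% mitochondrial counts or at a Leiden resolution of 0.3, and 1 with nuclei classed by their own transporter UMIs. It kept none of its 3 genes under that last setting, at a resolution of 1.2 or without upper limits on genes and counts. The PVH-hashtag transmitter count of 7 became 15 at a positive quantile of 0.99, which left 1229 ARC and 407 PVH singlets, and 1 by nucleus. The leading-cluster count of 26 became 17 with the PVH hashtag only, and the count between hashtags in glutamatergic neurons became 4 with at most 5% mitochondrial counts. Apart from the 1.5-fold threshold, shares of all genes under these settings are not given here. A change over all genes therefore cannot be told from one of the members. At the quantile of 0.99, 2 values reversed: Cbln2 between transmitter classes in PVH-hashtag neurons (log2 ratio -1.38) and Ntm between hashtags in GABAergic neurons (-0.53), where none of the 6 genes past 2-fold was shared. The cause of these changes was not tested, apart from the lower threshold, which by construction adds genes.

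The comparison of the hashtags over all neurons moved least, with 5 to 9 members past 2-fold under the other settings. Fewer alternatives applied to it (11, against up to 16 elsewhere). It takes no transmitter class and uses clusters only to set aside non-neuronal nuclei, so its steadiness is partly built in. Cntnap3 (log2 1.87 to 2.13), Cbln2, Cntnap5b, Cntn6 and Il1rapl2 (-1.54 to -1.21) were past 2-fold in all 11 alternatives, and Nxph4 in the 8 in which it could be read, whereas Cntn4 was so in 8 of 11 (0.86 to 1.27), at the threshold. Of 74 such values, 69 stayed inside the counting interval of the value reported. Of 407 leading-cluster values, 374 stayed past 2-fold. Leaving out the cluster with astrocyte markers, chosen after the data were seen, gave counts of 8 between hashtags, 2 and 8 between transmitter classes, 26 in leading clusters, and 7 and 6 between hashtags within classes. Shares of all genes are not given for these counts or for the 5 to 9 above, so they are not set against a background. No paired analysis was possible because the nuclei form 1 pooled library without replicates. Members under about 100 UMIs, such as Nxph4 and Slitrk6, are limited by depth.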
